A study of Mus musculus with 6 samples.

Results

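Class IIa histone deacetylases, Mef2 transcription factors and Camta coactivators form a calcium-responsive switch on muscle genes. Their RNA was compared between cells sorted as muscle stem cells from control mice and from mice made to delete Dio2. Dio2 is the gene of type 2 deiodinase (D2), which makes active thyroid hormone inside cells. The 9 genes were Hdac4, Hdac5, Hdac7 and Hdac9, then Mef2a, Mef2c and Mef2d, then Camta1 and Camta2. They were taken by name from the 31053 genes of the count table, and all 9 were among the 11633 genes that passed the expression minimum, a mean normalized count above 10. Of these, 8 were chosen by family. Camta2 was chosen for its rise in the Dio2-depleted (cD2KO) mice, so that its values are a description and carry no test. Coordinates are those of mm10.

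RNA was sequenced from quiescent muscle stem cells (qMuSCs) of hindlimb muscles of 3 WT and 3 cD2KO mice aged 3 to 4 months, with 1 library per mouse. The WT mice were Pax7nGFP/+;Pax7+/+;Dio2Fl/Fl and the cD2KO mice Pax7nGFP/+;Pax7-CreERT2/+;Dio2Fl/Fl, so that both carried the floxed Dio2 alleles and the GFP reporter, both received tamoxifen, and only cD2KO mice carried the recombinase. Pax7, a transcription factor of muscle stem cells, drives both the GFP used for sorting and the recombinase. Effects of the Cre allele and of the loss of Dio2 therefore cannot be told apart. The WT mice are called c124, c129 and c130 and the cD2KO mice fl125, fl126 and fl128, as in the labels.

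As background, class IIa HDACs have little deacetylase activity of their own. They bind Mef2 on DNA and bring in a corepressor complex with Hdac3, and when calcium-dependent kinases phosphorylate them they are bound by 14-3-3 proteins, leave the nucleus and release Mef2. Mef2 factors act with MyoD family factors on muscle structural genes during differentiation. Camta proteins, calmodulin-binding transcription activators, are a further target of class IIa HDACs. Camta2 coactivates Nkx2-5 in the heart, and class IIa HDACs repress Camta2.

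The DNA just upstream of the start sites of Camta2 and Hdac5 is shown because Camta2 lay farthest from its WT level, and Hdac5 was the 1 other member past the test line and the 1 member with a Mef2 consensus site there. RefSeq gave 16 start sites for the 9 genes, and the 250 bases before each were searched on both strands for the Mef2 consensus site, an E-box bound by MyoD family factors (CANNTG), the recognition hexamer of nuclear receptors such as the thyroid hormone receptor (AGGTCA) and the core of the Camta site (CGCG). Capitals mark every match, and the sequences run 5′ to 3′ on the gene's strand, the minus strand for both (RefSeq, GRCm38.p6). The windows lie at chr11:70688106-70688355 and chr11:70687531-70687780 for Camta2 and chr11:102230173-102230422 for Hdac5, and hold 0 bases of annotated exons in GENCODE M21.
Camta2, first start: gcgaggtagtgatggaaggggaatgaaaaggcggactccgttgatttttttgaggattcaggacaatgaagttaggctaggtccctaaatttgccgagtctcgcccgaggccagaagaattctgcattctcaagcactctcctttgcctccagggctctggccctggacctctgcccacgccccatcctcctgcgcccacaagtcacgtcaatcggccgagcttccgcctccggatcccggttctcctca
Camta2, start inside the gene: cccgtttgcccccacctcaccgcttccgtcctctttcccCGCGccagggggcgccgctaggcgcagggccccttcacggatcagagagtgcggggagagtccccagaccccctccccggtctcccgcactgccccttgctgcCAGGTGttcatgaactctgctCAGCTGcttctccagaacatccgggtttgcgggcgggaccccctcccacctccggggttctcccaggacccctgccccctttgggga
Hdac5: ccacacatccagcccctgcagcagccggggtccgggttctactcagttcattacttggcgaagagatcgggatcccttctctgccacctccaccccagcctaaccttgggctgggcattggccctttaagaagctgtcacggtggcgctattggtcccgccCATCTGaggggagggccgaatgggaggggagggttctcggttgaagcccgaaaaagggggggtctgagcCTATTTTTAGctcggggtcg
The window before the first Camta2 start held none of these letters, and the one inside the gene held 2 E-boxes and 1 CGCG. Hdac5 held an E-box and, nearer the start, the Mef2 site, and matches did not overlap. The Mef2 site was found in 1 of the 16 windows (2.92% of the 32851 promoter windows of all genes), the nuclear receptor hexamer in 4 windows of 3 members, Hdac7, Hdac9 and Mef2c (14%), the E-box in 7 windows (66.2%) and CGCG in 7 windows of 6 members (33.8%). A match is a description of the letters and not a binding site, and no match says only that these letters are absent from the window.

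Total counts were 2184073 to 3897787 per mouse, so that 3 counts stand for 0.770 to 1.37 counts per 1000000 before TMM scaling. CPM are counts per 1000000 after TMM scaling. Dio2 itself was counted 21, 5 and 10 times in c124, c129 and c130 and 15, 5 and 1 times in fl125, fl126 and fl128. It did not separate the groups (WT 3.58 ± 1.78 CPM, cD2KO 2.96 ± 3.43 CPM, mean ± SD, n = 3; exact permutation test over mice, two-sided, p = 0.7, with 0.1 the smallest p possible), and the deletion cannot be read from these counts. Pax7 was present in every library, with 213 to 434 CPM in the WT group and 316 to 691 CPM in the cD2KO group. The libraries also held RNA of other cell types (see the plot of marker sums). Mural cell markers summed to 9811 to 15080 CPM in WT and 18460 to 29040 CPM in cD2KO mice, and 8 of 14 rose, among them the smooth muscle genes Acta2 (2673 ± 1219 to 6007 ± 1776 CPM) and Myh11 (2192 ± 229 to 4371 ± 1569 CPM). The other 6, among them the pericyte genes Rgs5, Pdgfrb, Kcnj8 and Abcc9 (log2 fold changes 0.00, -0.06, -0.36 and -0.23), did not pass the test line, an unadjusted p under 0.05. Immune markers summed to 4602 to 8852 CPM in WT and 236 to 2955 CPM in cD2KO mice, with 4 of 16 tested lower and the lowest sum in fl125. None of the 16 had a log2 fold change above 0 (median -1.96). In 14 of them every cD2KO mouse was below every WT mouse, beside 10% of all genes. Endothelial markers summed to 336 to 543 CPM in WT and 274 to 352 CPM in cD2KO mice, with 8 of 15 tested lower. Myofiber markers, 2 of 12 higher, ranged over 2751 to 5795 and 4760 to 9136 CPM. Fibroadipogenic progenitor markers, 2 of 8 tested lower, ranged over 3626 to 6205 and 2226 to 4979 CPM. Schwann cell markers, 1 of 5 lower and 4 with a log2 fold change above 0 (median 0.26), ranged over 4350 to 6768 and 6056 to 6946 CPM. Muscle stem cell markers, 3 of 10 higher, ranged over 1008 to 1390 and 1369 to 1721 CPM. For all these lists, the shares among all genes tested were 5.34% higher and 6.62% lower. In bulk RNA, fewer cells of a type and less RNA per cell cannot be told apart. The paper used mice of both sexes. Of 4 tested sex chromosome genes, 1 was lower in cD2KO mice, with log2 fold changes of -1.555 to 0.039 over the 4. The part of sex in the results was not tested.

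**Figure D1:**
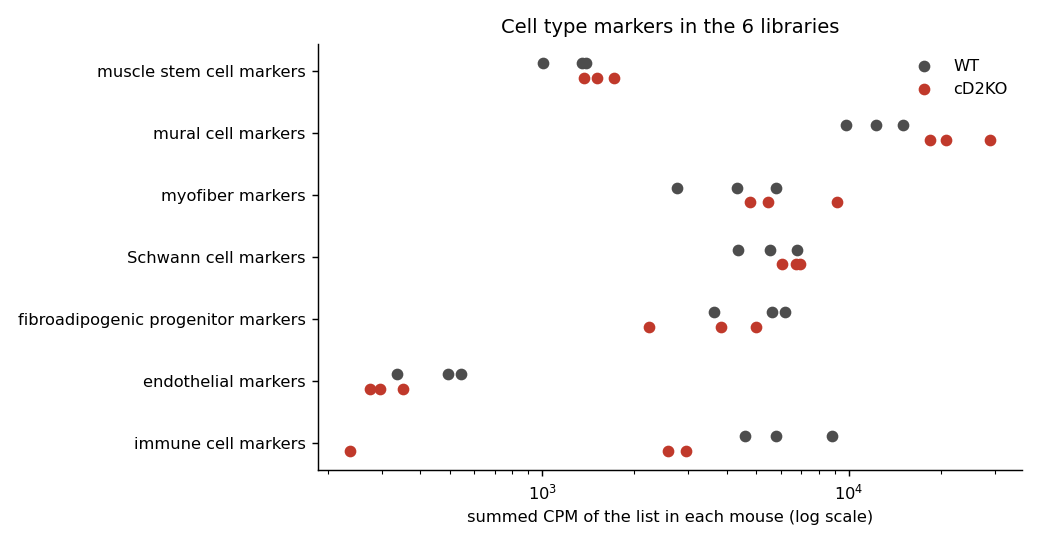
Summed CPM of 7 cell type marker lists (log axis), with a point for each of the 3 WT and 3 cD2KO mice. The mural sums do not overlap (9811 to 15080 against 18460 to 29040 CPM), nor do the immune sums, which reach down to 236 CPM in fl125.

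Among the 8 members other than Camta2, Hdac5 rose in cD2KO mice and the other 7 did not pass the line, an unadjusted p under 0.05 in edgeR's quasi-likelihood test. That is 12.5% of the 8, beside 12% of all genes tested, of which 5.34% were higher and 6.62% lower. None of the 8 had a Benjamini-Hochberg adjusted p under 0.1 over all genes in edgeR, against 0.774% of all genes. Groups did not overlap for 3 of these 8, beside 18.1% of all genes: 2 had every cD2KO mouse above every WT mouse (Hdac5 and Mef2d; 8.05% of all genes) and 1 had every cD2KO mouse below (Mef2a; 10% of all genes). The separation of Camta2 follows from its choice and is not counted. The median log2 fold change, cD2KO minus WT, was 0.07 over the 8 members, and -0.02 over all genes.

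**Figure D2:**
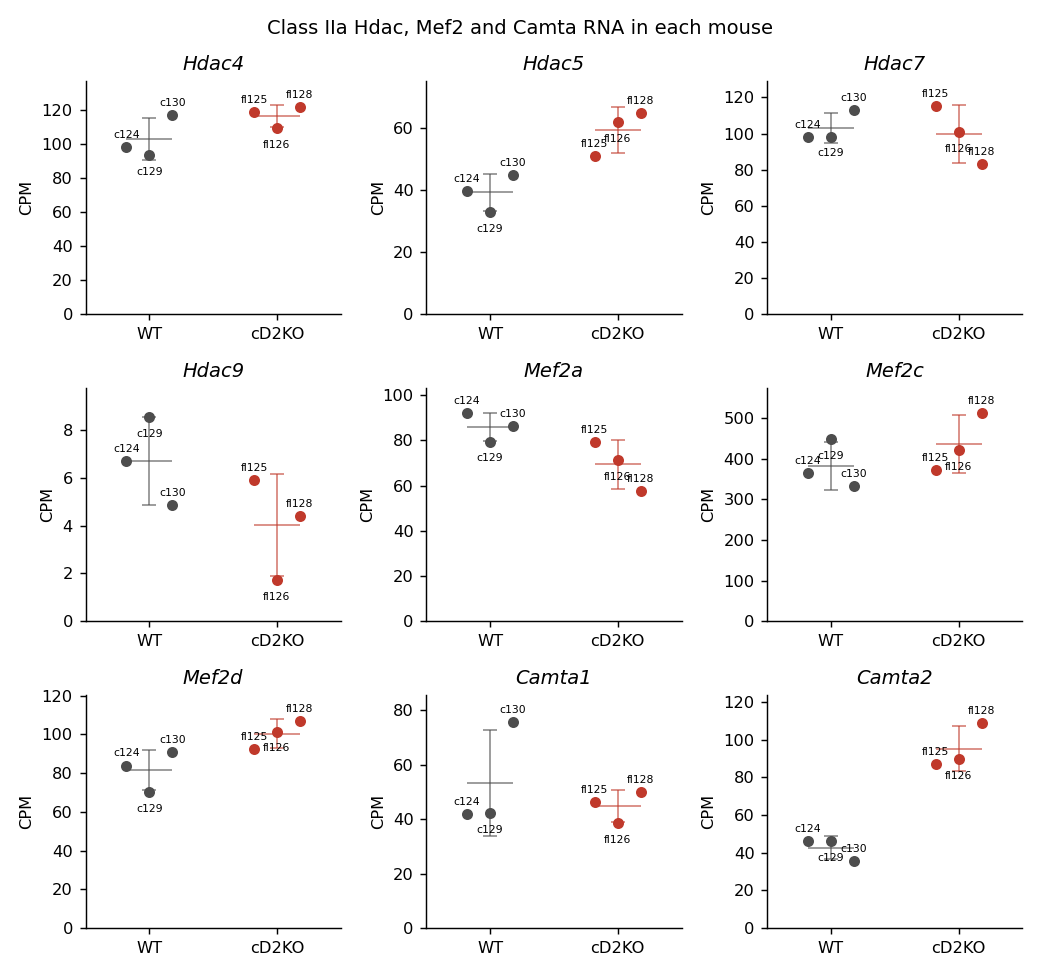
CPM of the 9 members, with a labelled point for each mouse and a line and bar for the mean ± SD of each group (n = 3); each panel has its own axis from 0. The groups separate for Hdac5, Mef2d and Camta2, which are higher in cD2KO mice, and narrowly for Mef2a, which is lower.

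Hdac5, a class IIa HDAC that holds Mef2 in check in heart and skeletal muscle, was the 1 of the 8 members past the line. This share, 12.5%, is near that of all genes tested (12%). Hdac5 lies on the minus strand of chromosome 11 (mm10, 102194432 to 102230166), and its level was 39.9, 33.0 and 44.9 CPM in c124, c129 and c130 and 51.0, 61.9 and 65.1 CPM in fl125, fl126 and fl128. All 3 cD2KO mice were above all 3 WT mice, with fl125 the closest to them. The means were 39.3 ± 5.95 and 59.3 ± 7.37 CPM (SD, n = 3), a log2 fold change of 0.60 (SE 0.23, 95% interval 0.11 to 1.09, edgeR quasi-likelihood test, adjusted p = 0.323). The call was lost without c129, without fl126 or without fl128, with log2 fold changes of 0.51, 0.57 and 0.52. The mural marker sum was higher in the same 3 mice, and its part in the result was not tested.

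Hdac4, the class IIa HDAC that muscle raises after denervation (chromosome 1, 91928779 to 92195699, minus strand), did not pass the line. Its values were 98.6, 93.6 and 117 CPM in WT (c124, c129, c130) and 119, 110 and 122 CPM in cD2KO mice (fl125, fl126, fl128), so that the groups overlapped at c130 and fl126. The log2 fold change was 0.18 (SE 0.19, 95% interval -0.23 to 0.59, edgeR adjusted p = 0.772). A lincRNA on the opposite strand, Gm26720, covers 22.4% of the exon bases of Hdac4 and was at 0 counts in all 6 mice.

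Hdac7 is known for its role in vessel integrity and thymocytes (chromosome 15, 97792664 to 97844502, minus strand). It was at 98.4, 98.4 and 113 CPM in the WT mice and 115, 101 and 83.4 CPM in the cD2KO mice, with the highest and the lowest value both in cD2KO mice (fl125 and fl128). The log2 fold change was -0.05 (95% interval -0.48 to 0.38, edgeR adjusted p = 0.957). Slc48a1, a heme transporter gene that shares 29 exon bases with Hdac7 on the opposite strand, rose from 96.0 ± 14.5 to 133 ± 25.0 CPM (log2 fold change 0.47, edgeR adjusted p = 0.396), a call that was lost without c129, c130, fl126 or fl128.

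Hdac9, which is expressed in heart, muscle and brain (chromosome 12, 34047580 to 34917095, minus strand), was the lowest of the 9, in CPM and in CPM per kb. It was counted 26, 23 and 14 times in the WT mice and 13, 5 and 14 times in the cD2KO mice, which is 6.70 ± 1.83 and 4.02 ± 2.13 CPM. The groups overlapped and the interval was wide (log2 fold change -0.75, 95% interval -2.06 to 0.57, edgeR adjusted p = 0.696).

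The makeup of the class IIa family was followed as shares of its read counts, not divided by length. Hdac4 made up 40.8 ± 0.945% of the family's counts in WT and 41.7 ± 2.34% in cD2KO mice, Hdac7 40.9 ± 1.01% and 35.6 ± 4.77%, Hdac5 15.5 ± 1.23% and 21.3 ± 3.31%, and Hdac9 2.72 ± 0.960% and 1.42 ± 0.720% (SD, n = 3). The summed level of the 4 genes was 234 to 280 CPM in WT and 274 to 291 CPM in cD2KO mice, ranges that overlap. The log2 ratio of Hdac5 to Hdac7 was -1.29, -1.56 and -1.32 in c124, c129 and c130 and -1.17, -0.70 and -0.36 in fl125, fl126 and fl128. Every cD2KO mouse was above every WT mouse. The group means differed by 0.65 (two-sided exact permutation p = 0.1, adjusted p = 0.257 over 9 pairs within the HDAC and Mef2 families). Any ratio that separates the groups has this exact p, the smallest the design allows. The ratio of Hdac4 to Hdac5 was lower in every cD2KO mouse, with a difference of means of -0.41, at the same exact p and adjusted p. Both ratios contain Hdac5, so that neither is separate from its higher level in cD2KO mice.

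**Figure D3:**
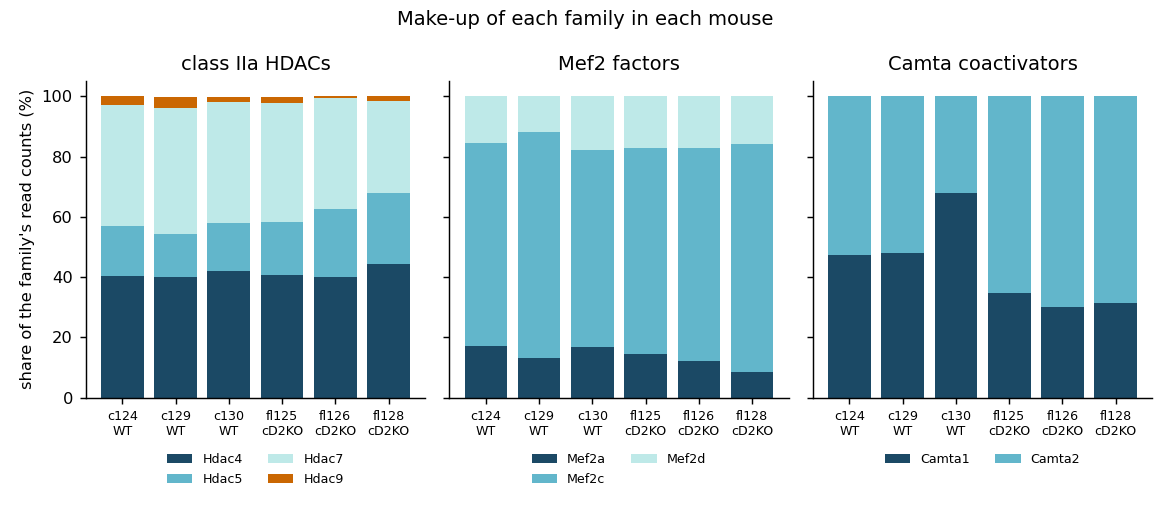
Share of each family's read counts (%, stacked to 100) taken by each member in each mouse. Camta2 takes 31.9 to 52.5% of the Camta counts in the WT mice and 65.2 to 70.0% in the cD2KO mice, while Mef2c takes most of the Mef2 counts in every mouse.

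Among the Mef2 factors, none passed the line, and 2 of the 3 did not overlap between groups, in opposite directions, beside 18.1% of all genes (8.05% higher and 10% lower). Mef2d, the factor whose muscle splice form acts in differentiation (chromosome 3, 88142372 to 88172086, plus strand), was at 84.0, 70.2 and 90.9 CPM in the WT mice and 92.5, 101.5 and 107 CPM in the cD2KO mice. The groups were separated, but c130 and fl125 lay within 2 CPM of each other. The log2 fold change was 0.30 (SE 0.20, 95% interval -0.12 to 0.72, edgeR adjusted p = 0.596). The antisense gene 1700113A16Rik covers 8.87% of its exon bases and had 0 to 10 counts per mouse.

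Mef2a, a factor of mature muscle and heart (chromosome 7, 67231163 to 67372858, minus strand), was lower in every cD2KO mouse and did not pass the line. Its values were 91.9, 79.5 and 86.3 CPM in WT and 79.2, 71.2 and 57.8 CPM in cD2KO mice, and c129 and fl125 were all but equal. The log2 fold change was -0.31 (SE 0.20, 95% interval -0.75 to 0.13, edgeR adjusted p = 0.593). Lysmd4, on the opposite strand, shares 2.06% of its exon bases and was at 3.48 to 7.74 CPM. Between these paralogs, the log2 ratio of Mef2a to Mef2d was 0.13, 0.18 and -0.07 in the WT mice and -0.22, -0.51 and -0.88 in the cD2KO mice. It was lower in every cD2KO mouse, with a difference of means of -0.62 (two-sided exact permutation p = 0.1, adjusted p = 0.257 over the 9 pairs).

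Mef2c, the factor required for heart and skeletal muscle sarcomere genes (chromosome 13, 83504034 to 83667080, plus strand), was the most abundant Mef2 RNA in every mouse, in CPM and in CPM per kb. It was at 365, 448 and 333 CPM in the WT mice and 372, 422 and 513 CPM in the cD2KO mice, with c129 above fl125 and fl126. The log2 fold change was 0.19 (95% interval -0.25 to 0.64, edgeR adjusted p = 0.783). Mef2c held 69.3 ± 5.09% of the family's counts in WT and 71.7 ± 3.70% in cD2KO mice, and Mef2b, the remaining Mef2 gene, had 0 to 3 counts per mouse.

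Camta2 was the member farthest from its WT level, the property for which it was chosen. Camta2 was at 46.4, 46.0 and 35.5 CPM in c124, c129 and c130 and at 87.0, 89.8 and 109 CPM in fl125, fl126 and fl128, from 102 to 180 and 191 to 345 counts. The lowest cD2KO mouse was well above the highest WT mouse. The means were 42.6 ± 6.17 and 95.2 ± 11.96 CPM (SD, n = 3), and the fitted log2 fold change was 1.16 (SE 0.21). Mural and immune marker sums differed between the same mice, as given above, and their part in this difference was not tested.

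The gene of Camta2 spans 70669463 to 70688105 on the minus strand of chromosome 11 (mm10), and its 23 exon blocks overlap no other gene. Inca1 lies 255 bases upstream on the same strand and had 1 to 16 counts per mouse, under the expression minimum. Spag7, which lies 46 bases away on the other side, had 45.4 ± 10.1 CPM (WT) and 56.7 ± 10.1 CPM (cD2KO) and did not pass the line (log2 fold change 0.32, edgeR adjusted p = 0.663). Kif1c, a kinesin motor gene 12442 bases away on the upstream side, on the plus strand, rose from 164 ± 15.5 to 288 ± 32.6 CPM (log2 fold change 0.81, edgeR adjusted p = 0.102), and its lowest cD2KO mouse was above its highest WT mouse.

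Camta1, the paralog of Camta2 (chromosome 4, 150917322 to 151861876, minus strand), did not pass the line. Its values were 42.0, 42.3 and 75.9 CPM in c124, c129 and c130 and 46.5, 38.5 and 49.9 CPM in fl125, fl126 and fl128. One WT mouse, c130, stood above the other 5, which lay close together. The log2 fold change was -0.25 (95% interval -0.82 to 0.33, edgeR adjusted p = 0.783), and it was 0.09 without c130. Per3, a clock gene within the span of Camta1 that shares no exon base with it, was also highest in c130, at 118 CPM against 33.4 to 74.7 CPM in the other mice. Camta1 lies 11.1 Mb from Pax7 on chromosome 4. The reporter and Cre alleles are named for Pax7, but their names do not say where they were inserted. Camta2 made up 52.5, 52.1 and 31.9% of the Camta counts in c124, c129 and c130 and 65.2, 70.0 and 68.6% in fl125, fl126 and fl128.

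**Figure D4:**
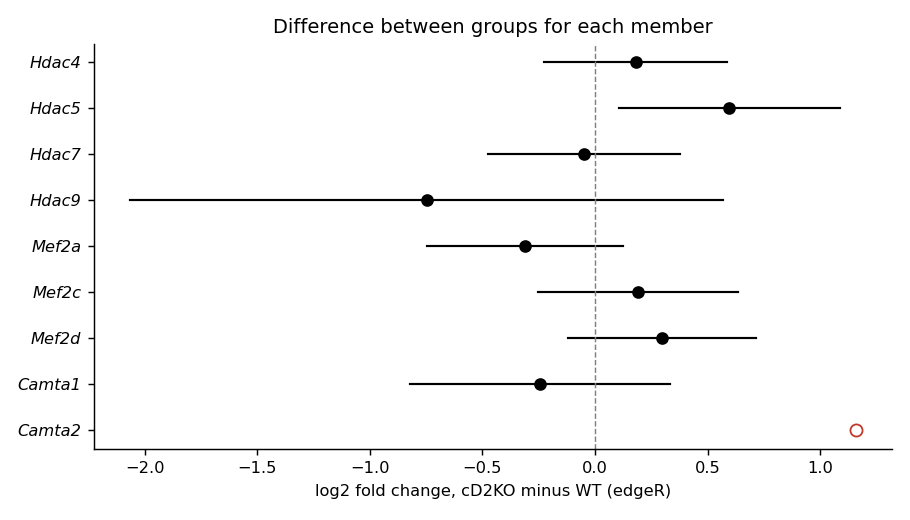
Log2 fold change of the 9 members, cD2KO minus WT, with 95% intervals from edgeR as bars for the 8 members chosen by family. The interval of Hdac5 alone lies above 0 (0.11 to 1.09); the open circle at 1.16 is Camta2, shown without interval because it was chosen for this difference.

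Levels of different genes were compared per length, as CPM per kb of merged exons. Mef2c was the highest in WT mice (24.3 ± 3.78 CPM per kb), followed by Hdac7 (15.3 ± 1.23), Mef2d (13.6 ± 1.76), Camta2 (8.19 ± 1.19), Hdac4 (6.52 ± 0.791), Mef2a (5.85 ± 0.426), Hdac5 (4.47 ± 0.678), Camta1 (3.67 ± 1.34) and Hdac9 (0.457 ± 0.125). The WT values of these neighbours in the order overlapped: Hdac7 with Mef2d, Camta2 with Hdac4, Hdac4 with Mef2a, and Hdac5 with Camta1. In cD2KO mice Camta2 stood in place 2 of the 9 rather than 4, at 18.3 ± 2.30 CPM per kb. The labels name a digital RNA-seq service, and whether its kit reads only transcript ends is not stated in the sources used here. If it does, division by length does not apply. In CPM, without that division, Camta2 stood in place 7 of the 9 in WT mice rather than 4. It was above Camta1 in c124 and c129 and below it in c130.

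The 5 genes whose log2 CPM followed Camta2 most closely over the 6 mice were Adcy5, an adenylate cyclase (Pearson r = 0.994), Jtb (r = 0.990), Mrps7, a mitochondrial ribosome protein (r = 0.989), Myadm (r = 0.988) and Itpr1, a calcium release channel of the endoplasmic reticulum (r = 0.986). The 6 points are 3 mice of each group, and Camta2 separates the groups, so that a gene that separates them tends to have a high r here. Adcy5 was at 21.6, 19.7 and 16.0 CPM in the WT mice and 39.6, 44.0 and 59.1 CPM in the cD2KO mice. Its mice rank as those of Camta2 do, and Jtb, Mrps7, Myadm and Itpr1 were also higher in every cD2KO mouse than in any WT mouse.

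Around the members, 90 further genes of the pathway stood in 11 lists and 82 of them were tested. In all, 8 were higher and 8 lower in cD2KO mice, beside 5.34% higher and 6.62% lower among all genes, with a median log2 fold change of -0.01 beside -0.02 for all genes, and 5 of the higher and 4 of the lower genes stood in the 2 lists of Mef2 target genes.

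**Figure D5:**
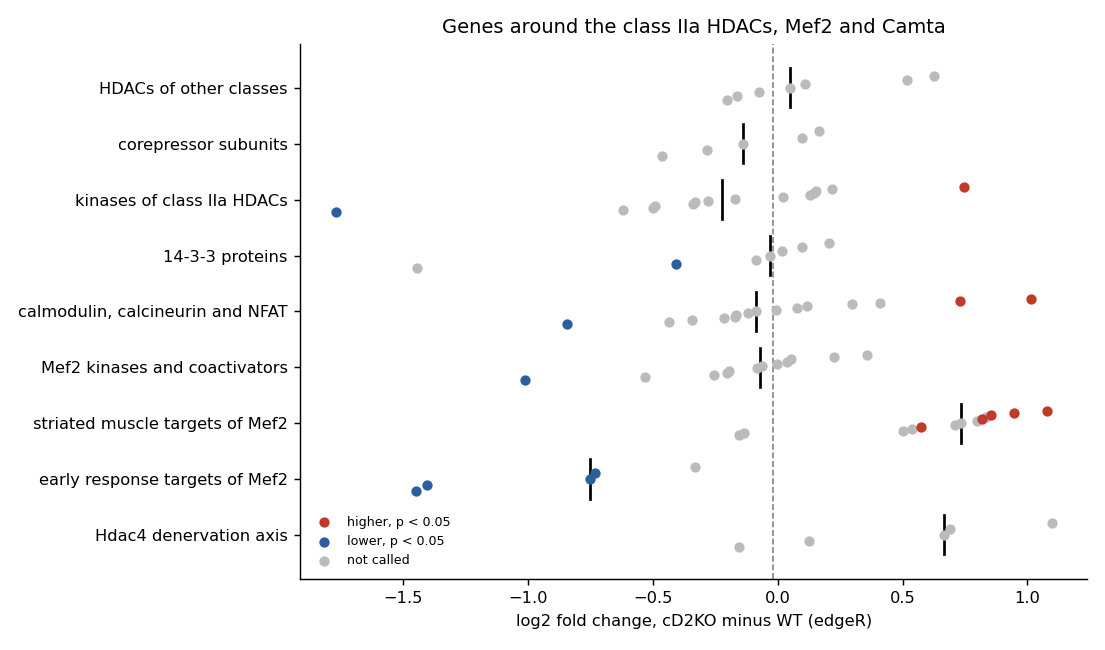
Log2 fold change, cD2KO minus WT, of each tested gene of 9 pathway lists (points; red higher and blue lower at an unadjusted p under 0.05, grey not called), with the list median (black line) and the median of all genes tested (dashed). The striated muscle targets of Mef2 have a median of 0.73 and the early response targets one of -0.75.

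In the corepressor machinery, no gene passed the line. Among the 7 HDACs of other classes, whose median log2 fold change was 0.05, Hdac11 had the smallest p (20.9 ± 7.80 against 32.5 ± 2.32 CPM, log2 fold change 0.62, edgeR adjusted p = 0.460). Hdac3, the catalytic partner of class IIa HDACs, had a log2 fold change of -0.16. Among the other corepressor subunits, Tbl1xr1 had the smallest p (log2 fold change -0.46, edgeR adjusted p = 0.571), and the scaffold Ncor1 had a log2 fold change of 0.17.

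Among the 14 tested kinases that phosphorylate class IIa HDACs, 1 rose and 1 fell, with a median log2 fold change of -0.23. Both counts are near the shares of all genes tested, 5.34% higher and 6.62% lower. Camk2g, a calcium/calmodulin-dependent kinase, was at 86.0, 91.7 and 95.4 CPM in the WT mice and 123.9, 133 and 201 CPM in the cD2KO mice. The groups were well separated (log2 fold change 0.75, SE 0.22, edgeR adjusted p = 0.162), and the call held with any 1 mouse left out. Camk1d, a calmodulin-dependent kinase of type I, fell from 12.3 ± 6.29 to 3.41 ± 2.98 CPM and was at 0 in fl125 (log2 fold change -1.77, edgeR adjusted p = 0.381), a call lost without c129, c130 or fl128. Camk4 and Camk1g were under the minimum. Among the 7 genes of 14-3-3 proteins, which keep phosphorylated class IIa HDACs in the cytoplasm, Ywhah fell (179 ± 4.97 to 135 ± 10.8 CPM, log2 fold change -0.41, edgeR adjusted p = 0.396), and this call stayed in 1 of 6 fits that left out a mouse, the one without fl128.

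Calmodulin, calcineurin and NFAT, the calcium branch that runs beside Mef2, had 15 genes with 2 higher and 1 lower. Among all genes tested, 5.34% were higher and 6.62% lower. The list had a median log2 fold change of -0.09. Nfatc4, an NFAT transcription factor, was at 48.1, 50.9 and 39.7 CPM in the WT mice and 76.1, 99.0 and 105 CPM in the cD2KO mice. This was a clear separation (log2 fold change 1.02, SE 0.22, edgeR adjusted p = 0.0902). Rcan2, a calcineurin regulator, rose from 242 ± 44.0 to 402 ± 46.9 CPM (log2 fold change 0.73, edgeR adjusted p = 0.151). Nfatc2 fell from 50.8 ± 17.0 to 28.0 ± 5.90 CPM (log2 fold change -0.85, edgeR adjusted p = 0.260), with overlap between the groups and with the call lost without c129 or c130. Among the 12 Mef2 kinases and coactivators, with a median of -0.07, Mapk14, the p38 kinase that phosphorylates Mef2, fell from 38.0 ± 16.9 to 18.8 ± 2.50 CPM (log2 fold change -1.01, edgeR adjusted p = 0.228), a call lost without c129.

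Striated muscle targets of Mef2 were the list with the most higher genes, 5 of 13, beside 5.34% of all genes, and none lower. Their median log2 fold change was 0.73. Myom1, a protein of the sarcomere M-band, was at 124.1, 118 and 108 CPM in the WT mice and 287, 199 and 254 CPM in the cD2KO mice. The groups were far apart (log2 fold change 1.08, SE 0.20, edgeR adjusted p = 0.0885). Des, the intermediate filament desmin, rose from 315 ± 59.6 to 609 ± 206 CPM (log2 fold change 0.95, edgeR adjusted p = 0.130). Slc2a4, the insulin-responsive glucose transporter, rose by a log2 fold change of 0.82 (edgeR adjusted p = 0.146) and Hrc, a calcium-binding protein of the sarcoplasmic reticulum, by 0.86 (edgeR adjusted p = 0.151). These 4 calls held with any 1 mouse left out, and over those fits the list had 4 to 7 higher genes and a median of 0.43 (without fl128) to 0.94 (without fl125). Muscle creatine kinase Ckm (log2 fold change 0.54), myoglobin Mb (0.71) and Myog, which encodes myogenin (-0.16), did not pass the line. Desmin is also a protein of smooth muscle and pericytes. The mural sum and the myofiber sum were 9811 to 15080 and 2751 to 5795 CPM in WT and 18460 to 29040 and 4760 to 9136 CPM in cD2KO mice, and their part in the result was not tested.

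Early response targets of Mef2 went the other way, with 4 of 5 lower, beside 6.62% of all genes, and none higher. Their median log2 fold change was -0.75. Klf4, a zinc finger factor, was at 108, 255 and 177 CPM in the WT mice and 67.4, 71.5 and 64.4 CPM in the cD2KO mice. The cD2KO mice lay close together below every WT mouse (log2 fold change -1.41, SE 0.27, edgeR adjusted p = 0.0885). Klf2, which endothelial cells raise under flow, fell from 120 ± 44.6 to 43.5 ± 9.33 CPM (log2 fold change -1.45, edgeR adjusted p = 0.0885). Klf6 also fell, with a log2 fold change of -0.75 (edgeR adjusted p = 0.202), as did Jun, of the AP-1 complex, with one of -0.73 (edgeR adjusted p = 0.375). Nr4a1, the fifth gene, had a log2 fold change of -0.33 and did not pass the line. The mouse c129 had the highest WT level of Klf2, Klf4, Klf6 and Jun, and without it 2 of the 5 were lower (Klf2 and Klf4), with a list median of -0.50. The call of Jun was also lost without fl126 or fl128. Immune markers summed to 8852 CPM in c129, 5795 CPM in c130 and 4602 CPM in c124 against 236 to 2955 CPM in cD2KO mice. Endothelial markers were mixed, with 8 of 15 tested lower, 2 with a log2 fold change above 0, and sums that overlapped between groups. The part of both lists in the result was not tested.

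In the denervation axis downstream of Hdac4, no gene of 5 tested passed the line. The median log2 fold change was 0.67, but 0.11 under limma voom, 0.38 without fl128 and -0.05 over the 2 genes left at a minimum mean of 50. Chrna1, a subunit of the muscle acetylcholine receptor, had the smallest p (11.2 ± 3.94 against 18.4 ± 6.95 CPM, log2 fold change 0.69, edgeR adjusted p = 0.533). Dach2, a repressed target of this axis, had 0 counts in all 6 mice. Nkx2-5, the heart partner of Camta2, and Nppa, its target, were also at 0 counts in all 6 mice, which allows up to 0.770 to 1.37 CPM per mouse.

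The neighbours of the other members were read in the same way. Of the nearest tested genes on either side of Hdac4, Hdac5, Hdac7, Hdac9, Mef2a, Mef2c, Mef2d and Camta1, only Tmub2 passed the line. It lies on the higher-coordinate side of Hdac5. Among all genes tested, 12% passed the line. Slc48a1, which overlaps Hdac7, also passed it, as given above. Tmub2 was lower (21.9 ± 7.43 to 12.5 ± 2.73 CPM, log2 fold change -0.82, edgeR adjusted p = 0.395), a call lost without c124, c130, fl125 or fl128. On the other side of Hdac5, G6pc3 lies 350 bases away and had a log2 fold change of 0.32 (edgeR adjusted p = 0.744).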

How the data were processed

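RNA of sorted muscle stem cells was sequenced from 3 WT and 3 cD2KO mice. The authors aligned the reads to mm10 with STAR, the submitters' processing notes name STAR 2.6.0a and HTSeq 0.9.1, and whole-number read counts per gene were deposited without normalization. Which annotation was counted, whether strand was used and how duplicates were treated are not given in the sources used here, so that reads of genes on opposite strands may be mixed. Symbols, coordinates and exon lengths came from GENCODE M21 (30934 of 31053 identifiers matched), and promoter sequences from RefSeq (GRCm38.p6), with all 9 members matched.

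Genes whose DESeq2-normalized counts averaged above 10 went into edgeR 4.0.16, with its quasi-likelihood test (R 4.3.3, TMM factors, robust, no covariate), with the line at an unadjusted p under 0.05. Benjamini-Hochberg adjusted p-values cover all 11633 genes. CPM used TMM-scaled totals, log2 CPM a prior count of 2, and CPM per kb the merged exon length. SDs describe the spread between the mice of a group. The edgeR p-values test the difference between groups against variation between mice, which edgeR estimates partly across genes. No pair of libraries agreed within sampling noise (chi-square per degree of freedom at least 8.24). The test was first tested on simulated data.

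The members and lists were chosen with earlier results of these data known. The genes named were all members; from each pathway list those under the line, up to 4 in order of p, or the 1 with the smallest p; overlapping and nearest tested genes; the 5 most like Camta2; Dio2 and Pax7; and defining markers. Hdac3, Ncor1, Ckm, Mb, Myog, Nr4a1 and 4 pericyte genes and genes under the minimum were added once their values had been seen. As alternatives served DESeq2 1.42.0, limma 3.58.1 voom, other scalings and filters, non-robust estimation, a line at an adjusted p under 0.1, and leaving out each mouse.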

Additional observations from a re-analysis of the deposited data

How the results depend on the processing

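Over 9 other settings (DESeq2 size factors, upper quartile or total count scaling, no minimum, filterByExpr, a minimum mean of 50, the DESeq2 Wald test, limma voom, non-robust estimation), Hdac5 stayed under an unadjusted p of 0.05, with log2 fold changes of 0.53 to 0.63 and adjusted p of 0.259 to 0.379, and no member changed sign. No scaling moved the median of all genes by more than 0.066. Hdac9 was not tested at the minimum of 50. Total count scaling gave 439 genes higher and 953 lower, beside 621 and 770. Without a minimum, 939 genes and 13 pathway genes were higher. With a minimum of 50, 505 genes were lower. At an adjusted p under 0.1, 33 genes were higher and 57 lower, 2 pathway genes were higher and 2 lower, and 0 members other than Camta2 were called (1 at an unadjusted p under 0.05, in edgeR, DESeq2 and limma voom alike).

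Leaving out each mouse gave 402 (without fl128) to 933 (without fl125) genes higher, 399 (without c129) to 874 (without fl125) lower, 0 (without c129, fl126 or fl128) to 1 members called, 7 to 10 pathway genes higher and 2 (without c129) to 8 lower. Hdac5 ranged from 0.51 to 0.73, Camta1 from -0.40 to 0.09 (0.092 without c130), and Hdac7 from -0.13 to 0.07 (0.018 without c130 and 0.065 without fl128). The Dio2 difference ranged from -2.56 to 0.694 CPM (0.287 without c124, 0.694 without fl128). The causes were not tested. Without division by length, the mean over WT mice of the ratio of Camta2 to Camta1 was 0.887, against 2.48 per kb, although Camta2 was above Camta1 in CPM in c124 and c129. No paired analysis was possible because the labels give no replicate numbers, and those used here follow sample order and pair nothing. The depth, at most 1.37 CPM for 3 counts, limits Hdac9 and Dio2.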
